A study of Mus musculus with 4 samples.

Results

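The genes described here are the ligands, receptors and secreted antagonists of the myostatin and activin branch of the TGF-beta family, followed in single cells of fetal mouse leg muscle. They were chosen by name, as 10 of the 32285 features in the deposited matrices, with earlier results of these data known. The ligands were Mstn, Gdf11, Inhba and Inhbb, the type II receptors Acvr2a and Acvr2b, the type I receptors Acvr1b and Tgfbr1, and the antagonists Fst and Fstl3. Unique molecular identifiers (UMIs, each counting 1 captured transcript) of all 10 genes were present in every library, 117838 in all among the cells kept.

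Cells came from the leg muscles of E18.5 (late gestation) fetuses, wild type (WT) or homozygous for a knockout (KO) of SYISL, a long noncoding RNA gene, with 2 libraries per genotype. Per the study, SYISL heterozygous mothers carried the fetuses, WT and KO fetuses were littermates, and the question was how loss of the gene changes fetal muscle cells and the signals between them. The KO was constitutive, so every cell type carried it, and the number and sex of the fetuses in each library were not stated. Tissue was digested with trypsin and passed through a 40 um strainer, which limits what can be said of multinucleate myotubes. No feature bears the name SYISL, so the deletion itself was not checked here.

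The libraries held 8177 to 10461 cells after filtering, 36969 in all, with a median of 9118 to 11427 UMIs per cell. Any 2 libraries shared 15 to 27 cell barcodes, at most 0.330% of a library. The library KO 2 stood apart in sex-linked genes, since Xist had 131038 UMIs there and at most 5 in the others, and Y-linked transcripts were found in 1.00% of its cells against 85.8% to 89.9% elsewhere. Sex and genotype therefore cannot be told apart for any value that rests on KO 2. Some of the differences that KO 2 moved are given also without it, but not all of them.

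Cells were grouped into 10 named classes by markers, from clusters built without the 10 genes and without 30 further genes of the pathway. They comprised 18097 fibro-adipogenic progenitor (FAP)-like cells, 6725 myogenic-like cells, 2294 tenocyte-like, 1838 glial-like, 1747 smooth muscle or pericyte-like, 1339 endothelial-like, 1274 chondrocyte-like, 1044 macrophage-like, 286 mast-like and 214 neutrophil-like cells, and the remaining cells stayed unnamed. KO 1 held only 80 chondrocyte-like cells against 248 to 567 in the other libraries. The names "X-like" rest on marker transcripts alone, and other classes also carried FAP markers, glial-like cells at a summed 11452 to 12516 CPM (counts of UMIs scaled to a total of 1e6 per class and library) and tenocyte-like cells at 39017 to 42260 CPM, above the 28089 to 32592 CPM of FAP-like cells.

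Myostatin and its close relative GDF11, and the activins built from the inhibin beta chains that Inhba and Inhbb encode, are secreted dimers. Each binds a type II receptor at the cell surface, which then activates a type I receptor, and the receptor pair phosphorylates SMAD2 and SMAD3, which act with SMAD4 on transcription. Follistatin (Fst) and follistatin-like 3 (Fstl3) bind the ligands outside the cell and keep them from the receptors. In skeletal muscle, myostatin is known as a brake on growth, and animals that lack it are heavily muscled.

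The windows just upstream of the transcription start are shown for Mstn and Inhba, ligands with different highest classes in these data (myogenic-like and tenocyte-like cells). Each is the 250 bases before the start, 5' to 3' on the sense strand, from the RefSeq promoters of GRCm38.p6, and capitals mark the E-box letters CANNTG, the core that MyoD-family and other basic helix-loop-helix factors bind and that reads the same on both strands.
Mstn, chr1:53061390-53061639, plus strand: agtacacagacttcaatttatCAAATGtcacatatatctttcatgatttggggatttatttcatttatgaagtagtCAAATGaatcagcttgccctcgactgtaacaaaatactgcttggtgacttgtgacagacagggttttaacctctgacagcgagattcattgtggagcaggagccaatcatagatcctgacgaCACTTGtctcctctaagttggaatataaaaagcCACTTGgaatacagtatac
Inhba, chr13:16011601-16011850, plus strand: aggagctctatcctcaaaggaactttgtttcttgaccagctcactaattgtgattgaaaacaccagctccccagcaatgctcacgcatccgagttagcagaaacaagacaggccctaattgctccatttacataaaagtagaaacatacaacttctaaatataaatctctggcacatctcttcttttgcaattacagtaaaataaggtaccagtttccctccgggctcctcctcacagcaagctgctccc
The Mstn window held 4 E-boxes, whose first bases lay 229, 174, 52 and 19 bases before the start, and a TATAAA 29 bases before it. The Inhba window held 0 E-boxes and a TATAAA 91 bases before the start. Of all 32851 promoter windows of this length, 66.2% held at least 1 E-box, 3.84% held 4 or more, 33.8% held 0 and 7.59% held TATAAA on the sense strand. These are letter matches only, and no binding was measured. A window was found for 9 of the 10 genes, all but Fst. Of those not shown, Fstl3 held 3 E-boxes, Gdf11 and Acvr1b 1 each, and Inhbb, Acvr2a and Acvr2b 0. The windows of Tgfbr1 held 0 and 1.

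To find which cells could send these signals, the level of each gene was set out by class as CPM, with the UMIs of a gene scaled to all UMIs of that class in that library. Mstn was mainly a myogenic transcript. Inhba came from tenocyte-like, chondrocyte-like, smooth muscle or pericyte-like and FAP-like cells, Gdf11 was highest in smooth muscle or pericyte-like cells, and Inhbb was sparse. Of the antagonists, Fst lay in FAP-like and glial-like cells and Fstl3 in glial-like and smooth muscle or pericyte-like cells, and both were near their lowest in myogenic-like cells, whose receptors Acvr2a, Acvr2b and Tgfbr1 were among the highest, while Acvr1b had its lowest mean there.

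**Figure D1:**
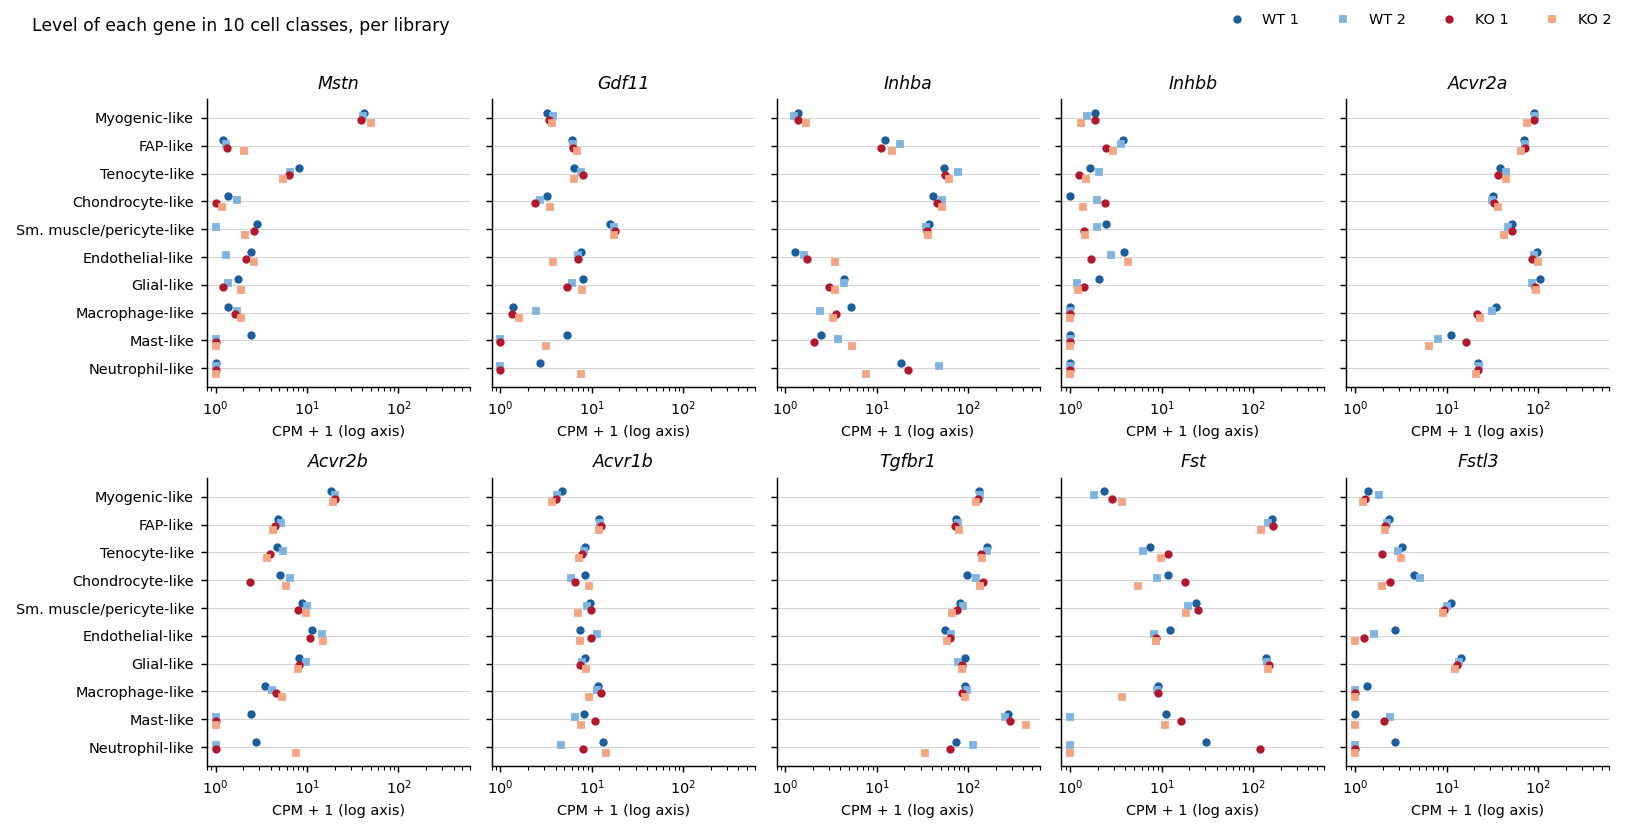
Level of each gene (CPM + 1, log axis) in the 10 classes, with 1 point per library (WT 1, WT 2, KO 1, KO 2). The myogenic-like points of Mstn, 37.9 to 49.1 CPM, stand apart from every other class, and those of Fst, 0.829 to 2.64 CPM, have the lowest class mean of their panel.

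Mstn (GRCm38 chromosome 1, 53061640 to 53068079, plus strand) measured 40.7 CPM in WT 1, 39.5 in WT 2, 37.9 in KO 1 and 49.1 in KO 2 in myogenic-like cells, with a mean of 41.8 ± 5.02 CPM (SD, n = 4). These cells held 2954 of the 3414 Mstn UMIs, or 86.8% ± 1.43 (SD, n = 4) per library. KO 2 was the highest of the 4, and the other libraries lay within 3 CPM of each other.
Tenocyte-like cells came next, with 7.09, 5.58, 5.33 and 4.496 CPM in WT 1, WT 2, KO 1 and KO 2, and the libraries of these 2 classes and of the classes below them did not overlap. Within the tenocyte-like class the level was highest in the cluster led by Cpxm2, Amtn and Kera, at 23.6, 10.2, 9.14 and 8.21 CPM, so WT 1 was more than 2-fold above the rest there. Summed myogenic markers were 35.0 to 145 CPM in tenocyte-like cells and 153 to 292 CPM in FAP-like cells, in which Mstn was 0.195 to 1.06 CPM. The part of these markers in the Mstn values was not tested. Every other class had a mean of 1.14 CPM or less, and neutrophil-like cells had 0 UMIs.

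After each cell was thinned to 2000 UMIs, Mstn was seen in 6.63%, 7.10%, 5.42% and 8.23% of myogenic-like cells in WT 1, WT 2, KO 1 and KO 2, and in 0.790% ± 0.287 (SD, n = 4) of tenocyte-like cells. Macrophage-like cells, which are not known to make myostatin, gave a background of 0.174% ± 0.202 (SD, n = 4). Before thinning, the myogenic-like shares were 25.3%, 27.0%, 21.2% and 28.0%, at median depths of 8967 to 11402.5 UMIs per myogenic-like cell and 10332 to 12543 per macrophage-like cell.

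Gdf11 (chromosome 10, 128882295 to 128891718, minus strand), a ligand closely related to myostatin, was highest in smooth muscle or pericyte-like cells at 14.9, 16.3, 16.8 and 16.5 CPM in WT 1, WT 2, KO 1 and KO 2. No library of another class reached these values. Tenocyte-like, glial-like, endothelial-like and FAP-like cells followed at means of 5.33 to 6.08 CPM with overlapping libraries, and FAP-like cells, being most numerous, held 51.8% ± 2.98 (SD, n = 4) of the Gdf11 UMIs. Myogenic-like cells were lower, at 2.21 to 2.74 CPM.

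Inhba (chromosome 13, 16011851 to 16031621, plus strand) encodes the chain that forms activin A. It was highest in tenocyte-like cells, at 53.4, 76.9, 54.0 and 60.9 CPM in WT 1, WT 2, KO 1 and KO 2. Chondrocyte-like cells had 39.9, 49.9, 44.8 and 50.3 CPM and smooth muscle or pericyte-like cells 36.3, 33.5, 34.1 and 35.4 CPM, and the libraries of these 3 classes did not overlap. Neutrophil-like cells spread from 6.58 to 46.5 CPM on 27 UMIs and overlapped both the smooth muscle or pericyte-like cells above and the FAP-like cells below.
FAP-like cells stood at 11.2, 16.7, 10.2 and 13.8 CPM and gave 41.5% ± 6.39 (SD, n = 4) of the Inhba UMIs. Within them the cluster led by Anxa8 and Bglap2, of 524 cells, measured 48.0, 116, 65.4 and 62.2 CPM, against 8.87 ± 1.43 CPM (SD, n = 4) in the largest cluster, led by Grm8 and Grin2b and also marked by Hpse2 and Smoc2. The Anxa8- and Bglap2-led cluster was split from a larger one that also gave tenocyte-like and chondrocyte-like clusters, with Inhba means of 53.5 to 93.8 CPM. Myogenic-like cells had the lowest mean of all classes, with 0.255 to 0.661 CPM and 30 UMIs in all.

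Inhbb (chromosome 1, 119415465 to 119422248, minus strand), the beta chain of activin B, had only 574 UMIs. FAP-like cells held 73.5% ± 3.47 (SD, n = 4) of them, at 2.73, 2.58, 1.45 and 1.96 CPM in WT 1, WT 2, KO 1 and KO 2. Endothelial-like cells had 2.88, 1.81, 0.703 and 3.30 CPM on 31 UMIs and overlapped the FAP-like values. The same Anxa8- and Bglap2-led cluster was again high, at 10.6, 7.48, 8.34 and 5.80 CPM. Macrophage-like, mast-like and neutrophil-like cells had 0 UMIs, and the remaining classes had means of 0.469 to 0.806 CPM.

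**Figure D2:**
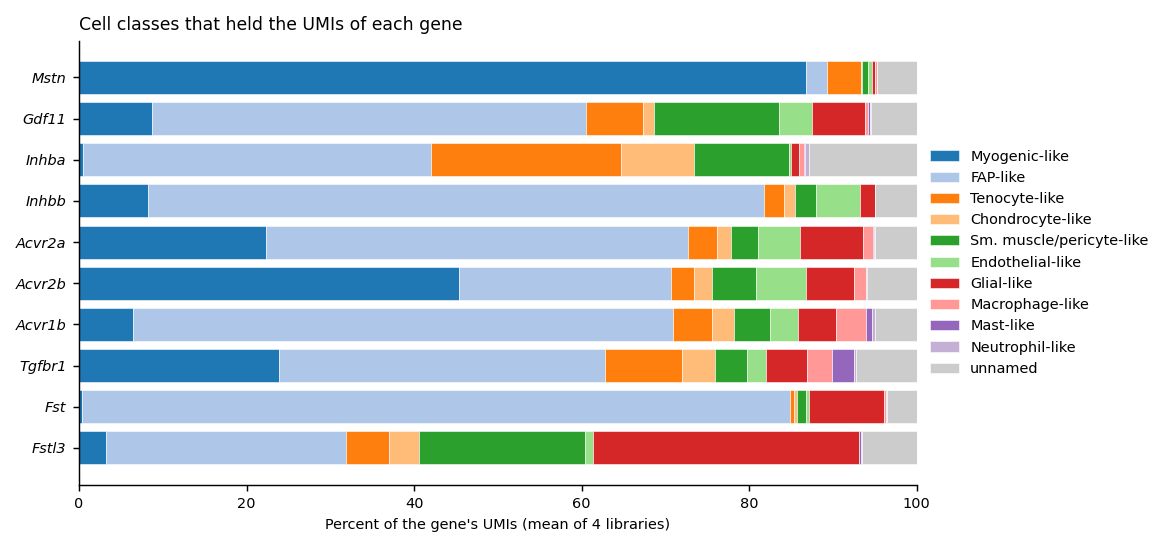
Share of each gene's UMIs by cell class (percent, mean of 4 libraries), with cells of unnamed clusters in grey. Myogenic-like cells make up 86.8% of the Mstn bar and 0.366% of the Fst bar, and FAP-like cells 84.5% of the Fst bar.

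Acvr2a (chromosome 2, 48814109 to 48903269, plus strand), a type II receptor for activins and myostatin, was found in every class. Glial-like cells measured 103, 83.6, 92.3 and 92.6 CPM in WT 1, WT 2, KO 1 and KO 2, endothelial-like cells 95.4, 88.9, 84.5 and 97.5 CPM, and myogenic-like cells 88.6, 90.3, 88.8 and 73.7 CPM. The libraries of these 3 classes overlapped, and all lay above the FAP-like values of 64.6 to 70.9 CPM. Smooth muscle or pericyte-like cells (47.1 ± 4.32 CPM; SD, n = 4) were lower again, and mast-like cells lowest (9.41 ± 4.28 CPM; SD, n = 4).
Among FAP-like clusters, Acvr2a was highest in the one led by Ccl11, at 148, 168, 165 and 149 CPM, and the cycling cluster with Ccl11 and Hhip among its leading genes had 124 CPM on average.

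Acvr2b (chromosome 9, 119402118 to 119434995, plus strand), the other type II receptor, was highest in myogenic-like cells at 17.2, 19.3, 19.1 and 18.4 CPM in WT 1, WT 2, KO 1 and KO 2. These cells held 45.4% ± 4.56 (SD, n = 4) of its UMIs. Endothelial-like cells (10.4, 13.6, 9.84 and 14.0 CPM) came next without overlap, and smooth muscle or pericyte-like and glial-like cells followed together at means of 8.08 and 7.51 CPM. FAP-like cells had 3.27 to 4.17 CPM.

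Acvr1b (chromosome 15, 101174067 to 101213684, plus strand), the type I receptor ALK4, was even across most classes. FAP-like cells had 11.0, 11.2, 11.4 and 11.0 CPM in WT 1, WT 2, KO 1 and KO 2, and each neighbour in the order overlapped the next down to the chondrocyte-like mean of 6.54 CPM. Myogenic-like cells had the lowest mean, at 3.72, 3.12, 3.04 and 2.64 CPM, and the one library of another class within their range was neutrophil-like WT 2 at 3.58 CPM, in a class with 11 Acvr1b UMIs.

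Tgfbr1 (chromosome 4, 47353222 to 47414931, plus strand), the type I receptor ALK5, serves TGF-beta as well as myostatin and GDF11. Mast-like cells were highest at 272, 254, 283 and 423 CPM in WT 1, WT 2, KO 1 and KO 2, although they held only 2.69% of its UMIs. Tenocyte-like cells followed at 159, 161, 136 and 139 CPM, and myogenic-like cells came after them at 131, 132, 125 and 120 CPM, overlapping the chondrocyte-like range of 94.6 to 143 CPM. FAP-like cells had 69.7 to 78.9 CPM.

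Follistatin, from Fst (chromosome 13, 114452290 to 114458951, minus strand), was highest in FAP-like cells at 159, 145, 165 and 120 CPM in WT 1, WT 2, KO 1 and KO 2, and in glial-like cells at 135, 140, 149 and 142 CPM, which overlapped. FAP-like cells held 84.5% ± 1.91 (SD, n = 4) of its UMIs and glial-like cells 8.89% ± 1.04 (SD, n = 4). KO 2 was lowest in FAP-like cells. Neutrophil-like cells measured 29.5, 0, 118 and 0 CPM, and the library with 118 CPM also had the highest summed FAP markers in that class, 14173 CPM against 3983 to 6897 CPM in the others, whose part in the value was not tested.
All other classes had means of 20.7 CPM or less. Myogenic-like cells were lowest, at 1.32, 0.829, 1.89 and 2.64 CPM, and held 0.366% of the Fst UMIs.

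Fst was far from even among FAP-like cells. The cluster led by Wnt2 and Ly6a, which also holds Pi16, had 320, 277, 338 and 220 CPM in WT 1, WT 2, KO 1 and KO 2, and the small cycling cluster with Plk1 and Gap43 had 329, 340, 349 and 220 CPM. The largest cluster had 94.5, 78.3, 72.6 and 73.9 CPM, below every library of the former pair. The Anxa8- and Bglap2-led cluster that was highest for Inhba and Inhbb had the lowest Fst mean of the 8 FAP-like clusters, 14.1 ± 5.00 CPM (SD, n = 4). Tenocyte-like and chondrocyte-like clusters split from the same larger cluster had Fst means of 1.07 to 9.71 CPM.

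**Figure D3:**
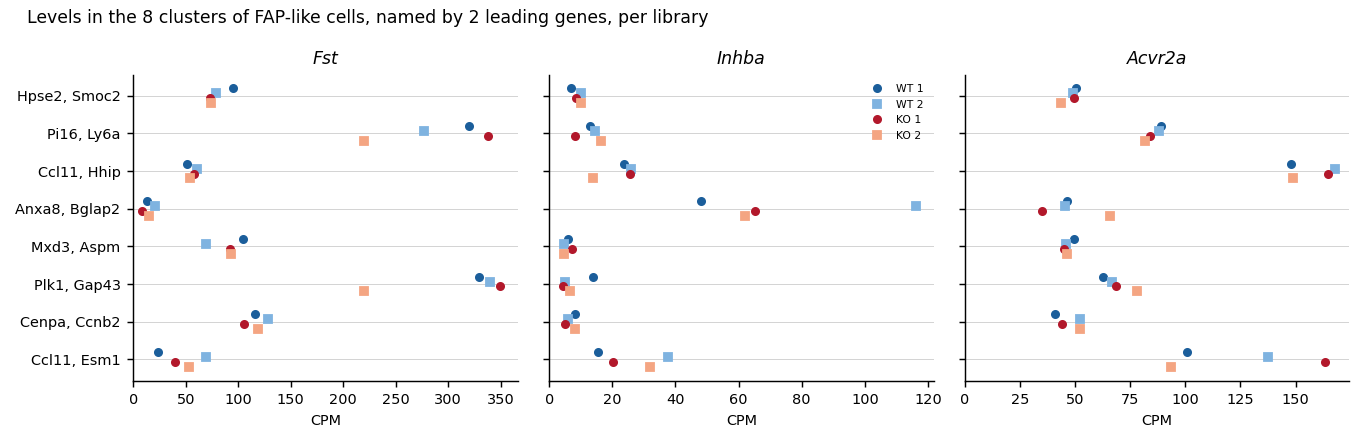
Levels (CPM) of Fst, Inhba and Acvr2a in the 8 clusters of FAP-like cells, each named by 2 of its leading genes, with 1 point per library. Fst is highest in the clusters with Pi16 and Ly6a (289 CPM on average) and with Plk1 and Gap43 (310 CPM), Inhba in the one with Anxa8 and Bglap2 (72.9 CPM) and Acvr2a in the one with Ccl11 and Hhip (157 CPM).

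Fstl3 (chromosome 10, 79777272 to 79782630, plus strand) was highest in glial-like cells at 13.4, 12.6, 12.1 and 11.4 CPM in WT 1, WT 2, KO 1 and KO 2. Smooth muscle or pericyte-like cells followed at 10.2, 8.97, 8.32 and 8.02 CPM, without overlap. FAP-like cells had 1.10 to 1.37 CPM but gave 28.6% ± 3.70 (SD, n = 4) of its 840 UMIs through their number. Myogenic-like cells had 0.203 to 0.829 CPM on 28 UMIs.

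To see how far the split between myogenic-like and FAP-like cells exceeds the spread between libraries, the summed UMIs of each class in each library were fitted with edgeR's quasi-likelihood test across 17175 genes, with the library as a block and Benjamini-Hochberg adjustment. All 10 genes passed an adjusted p of 0.05, 4 of them higher in myogenic-like cells and 6 lower. Across all genes tested, 39% were higher and 43.1% lower, so most genes separate these classes. The median difference of the 10 genes was -1.19 (log2) against -0.06 over all genes tested. The classes were built from other genes of the same cells, so these p-values measure only how steady each difference was over libraries.

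Mstn was 6.59 ± 0.19 (log2, SE) higher in myogenic-like cells (edgeR, adjusted p = 8.62e-11), and without KO 2 the difference was 7.28. Acvr2b was 2.48 ± 0.08 higher (edgeR, adjusted p = 2.51e-10), Tgfbr1 0.92 ± 0.04 higher and Acvr2a 0.46 ± 0.04 higher. Fst fell by 6.25 ± 0.15 (edgeR, adjusted p = 2.37e-11) and Inhba fell by 4.76 ± 0.17 (edgeR, adjusted p = 5.29e-10). Acvr1b fell by 1.70 ± 0.10, Inhbb fell by 1.61 ± 0.28, Fstl3 fell by 1.44 ± 0.32 and Gdf11 fell by 0.95 ± 0.11. Mstn, both type II receptors and Tgfbr1 were thus higher in myogenic-like cells, while the type I receptor Acvr1b, the ligand Gdf11, both antagonists and both activin chains were lower.

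Of the 30 further pathway genes (processing enzymes, SMADs, regulators and targets), 25 could be tested in this comparison, and 6 were higher and 16 lower in myogenic-like cells. Tll2, a tolloid-like protease that can free myostatin from its propeptide, was 1.35 ± 0.17 (log2, SE) higher, Tgif1, a SMAD corepressor, 0.94 ± 0.04 higher and Zfyve9, a SMAD anchor, 0.60 ± 0.04 higher. Tll1, another tolloid-like protease, fell by 4.03 ± 0.19, Pcsk6, a proprotein convertase, fell by 3.51 ± 0.10, and Wfikkn2, which encodes a secreted myostatin and GDF11 antagonist, fell by 2.85 ± 0.20. The antagonist Wfikkn2 thus sat on the same side as Fst and Fstl3.

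Cells in which both receptor types were seen at equal depth were counted next. After thinning to 2000 UMIs, at least 1 type II and 1 type I receptor UMI were found in 4.40%, 4.13%, 3.80% and 3.69% of myogenic-like cells in WT 1, WT 2, KO 1 and KO 2. The libraries ranged from 1.97% to 3.27% in glial-like, 1.86% to 2.42% in FAP-like, 0.929% to 2.96% in endothelial-like and 0.372% to 1.83% in macrophage-like cells, all below the myogenic-like shares. Tenocyte-like, chondrocyte-like, mast-like and smooth muscle or pericyte-like libraries had at most 2.50%, but neutrophil-like KO 1, with 24 cells, had 4.17%, and unnamed cells had 1.79% to 4.81%. These are shares of cells with a UMI at this depth, not of cells with the receptors.

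The 9 classes other than myogenic-like and the 4 myogenic stages gave 13 points, which share libraries but no cells. No minimum cell number was set. The genes whose mean log2(CPM + 1) followed each gene most closely over these points were ranked by Pearson's r (n = 13). For Mstn these included Pitx3 (r = 0.963) and Iqsec3 (0.951). For Inhba they were Vasn (0.951), Col6a3 (0.940) and Col24a1 (0.934), and for Fst they were Itgb3 (0.964), Col5a3 (0.962) and Ppp2r2b (0.934). For Acvr2b the closest was Sept10 (0.958), for Acvr2a Zfp692 (0.957), for Acvr1b Sel1l (0.955), for Gdf11 Cald1 (0.940), for Fstl3 Grb14 (0.921) and for Tgfbr1 Ern1 (0.888). These are descriptions of 13 points and say nothing of shared control.

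Myogenic-like cells were then divided into progenitor-like (3303 cells), cycling (1927), myoblast-like (1415) and myotube-like (80) stages by sub-clusters that were named from lists of stage markers such as Pax7, Myog, the fetal myosins and cell cycle genes. Along this order Mstn, Gdf11 and Acvr2a fell from progenitor-like to myoblast-like cells while Tgfbr1 rose, and Acvr2b did not pass the test.

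**Figure D4:**
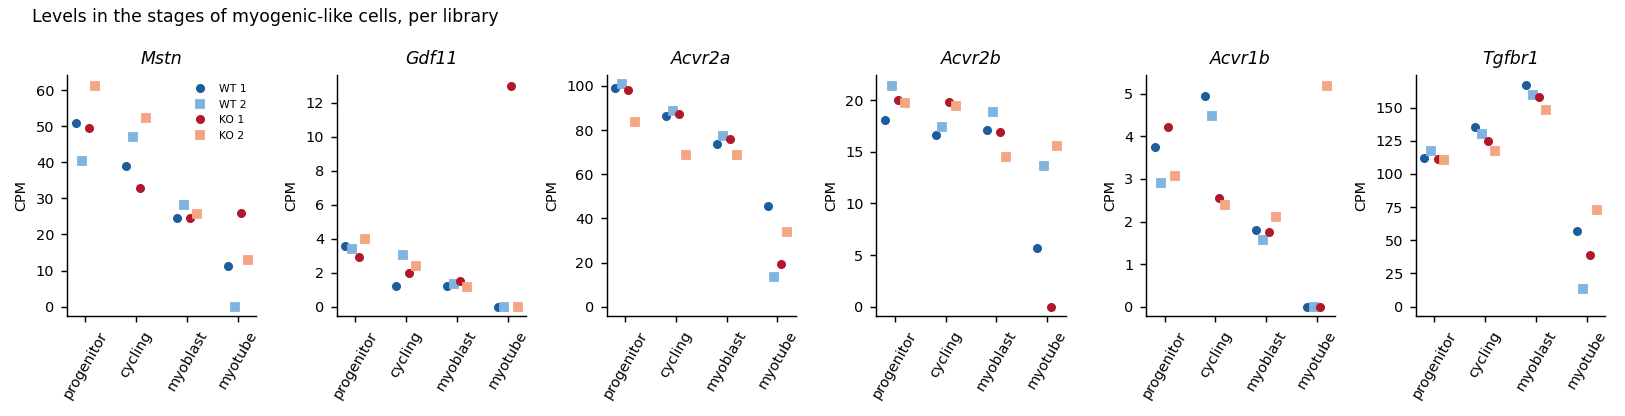
Levels (CPM) of genes by stage of myogenic-like cells, with 1 point per library. Mstn is lower in myoblast-like cells (24.6 to 28.3 CPM) than in progenitor-like cells (40.2 to 61.2 CPM), Tgfbr1 is higher (148 to 167 against 110 to 118 CPM), and the myotube-like points, from 80 cells in all, scatter widely.

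Mstn in progenitor-like cells measured 50.9, 40.2, 49.4 and 61.2 CPM in WT 1, WT 2, KO 1 and KO 2, and in myoblast-like cells 24.6, 28.3, 24.7 and 25.7 CPM. The stages did not overlap. In the fit of myoblast-like against progenitor-like cells (11885 genes, library as a block), 33.1% of all genes were higher and 33.7% lower, and of 6 genes of the set tested 1 was higher and 4 lower. Mstn fell by 0.83 ± 0.10 (log2, SE; edgeR, adjusted p = 2.10e-07). Gdf11 went from 2.94 to 4.002 CPM over the libraries to 1.17 to 1.496 CPM and fell by 1.28 ± 0.33. Acvr2a went from 99.2, 101, 98.1 and 83.5 CPM to 73.7, 77.3, 76.1 and 68.8 CPM and fell by 0.23 ± 0.06. Tgfbr1 went from 112, 118, 111 and 110 CPM to 167, 160, 158 and 148 CPM, higher in each library. The fit gave a Tgfbr1 rise of 0.62 ± 0.05 (edgeR, adjusted p = 7.66e-10).
Acvr1b fell by 0.80 ± 0.30 (edgeR, adjusted p = 0.0235) on 28 UMIs in myoblast-like cells, and the call was lost without WT 1 (adjusted p = 0.0568) or KO 1 (0.121). Acvr2b differed by -0.11 ± 0.12 (edgeR, adjusted p = 0.434), and the value turned to 0.05 when stages were set by Pax7 and Myog UMIs alone. Of the further pathway genes tested, 3 of 21 were higher (Tgif1 by 0.52, Fkbp1a by 0.40 and Smurf1 by 0.38, log2) and 13 lower. Among the lower genes Bmp1, a tolloid protease, fell by 2.69 and Tll2 fell by 1.97 on that scale.

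Between cycling and progenitor-like cells (12520 genes, 26.7% higher and 26.5% lower), the differences were small. Tgfbr1 was 0.21 ± 0.05 (log2, SE) higher, at 136, 130, 125 and 117 CPM in the cycling cells, and Acvr2a fell by 0.17 ± 0.05. Mstn fell by 0.21 ± 0.09 (edgeR, adjusted p = 0.0426) and Gdf11 fell by 0.65 ± 0.26 (edgeR, adjusted p = 0.0379), but both of these calls were lost without WT 1, without KO 1 or without KO 2, with adjusted p-values of 0.0636 to 0.402 for Mstn and 0.0792 to 0.181 for Gdf11. Cycling cells gave Mstn at 39.0, 47.0, 32.9 and 52.4 CPM, which overlapped the progenitor-like libraries. Among the further pathway genes 4 of 22 were higher and 11 lower, with Pcsk6 0.94 higher (call lost without WT 2, KO 1 or KO 2) and Smad2 0.38 higher.

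Myotube-like cells were few (26, 11, 13 and 30 in WT 1, WT 2, KO 1 and KO 2), and against myoblast-like cells 14.1% of 9363 genes were higher and 11.2% lower. Of 5 genes of the set tested 1 was higher and 2 lower. Fst was 3.94 ± 0.58 (log2, SE) higher (edgeR, adjusted p = 3.47e-10), from 24 UMIs at 39.7, 0, 58.6 and 20.8 CPM. Summed FAP markers in the same cells were 273 CPM in WT 2, the library without an Fst UMI, and 3562 and 2844 CPM in WT 1 and KO 1, against 352 to 421 CPM in myoblast-like cells, and their part in the Fst value was not tested.
Tgfbr1 fell by 1.32 ± 0.30 (edgeR, adjusted p = 1.46e-04), to 56.7, 13.6, 39.0 and 72.7 CPM. Acvr2a fell by 0.96 ± 0.37 (edgeR, adjusted p = 0.0378), a call lost when any library was left out (0.0542 to 0.199). Mstn was at 11.3, 0, 26.0 and 12.98 CPM on 11 UMIs and differed by -0.60 ± 0.54 (edgeR, adjusted p = 0.451). Of 17 further pathway genes tested 4 were lower and 0 higher, among them the SMAD corepressors Skil and Tgif1, which fell by 1.42 and 1.41 (log2), but Skil lost its call without KO 1 and Tgif1 without WT 1.

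To ask whether loss of SYISL changed these genes, KO and WT libraries were compared class by class with edgeR's quasi-likelihood test on summed UMIs, 2 libraries against 2. None of the 10 genes passed an adjusted p of 0.05 in any of the 9 classes tested, in the 3 myogenic stages or in all kept cells. In myogenic-like cells 8 of the 10 genes could be tested and 0 were called, where 0% of 14707 genes were called. With an unadjusted p under 0.05 there were 1 of the 8 and 532 of all genes, and DESeq2 also called 0 of the 8. In a test on simulated counts of this comparison, 71% of genes changed 2-fold and 94% of genes changed 4-fold were recovered, so smaller differences could be missed. The changed genes were drawn at random from all 14707, with a spread set by expression level alone. Recovery was therefore not measured for the 10 genes themselves, some of which were sparse here, such as Inhbb with 44 UMIs.

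**Figure D5:**
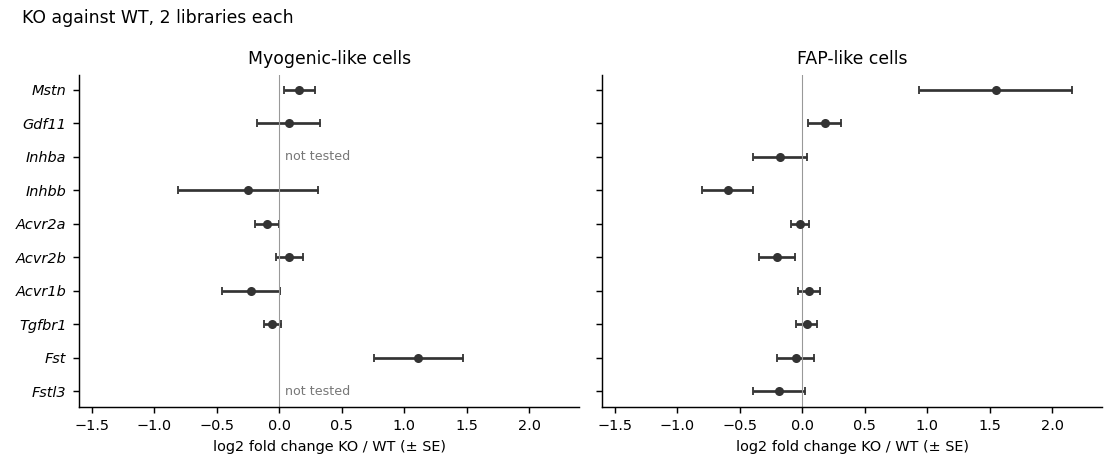
KO against WT difference (log2 fold change ± SE, 2 libraries per genotype) of each gene in myogenic-like and FAP-like cells. Receptor values lie close to 0, Fst in myogenic-like cells (1.11) and Mstn in FAP-like cells (1.55) lie farthest out, and no gene passed an adjusted p of 0.05.

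Mstn in myogenic-like cells differed by 0.16 ± 0.13 (log2, SE; edgeR, adjusted p = 0.968), KO 1 being the lowest library and KO 2 the highest, and without KO 2 the value was -0.05. The share of myogenic-like cells with a Mstn UMI at 2000 UMIs was 6.87% ± 0.335 in WT and 6.83% ± 1.98 in KO (SD, n = 2 each), a difference of -0.0417 percentage points (exact permutation test, two-sided, p = 1). The smallest p that 2 against 2 libraries allow is 0.33. By stage the values were 0.32 ± 0.15 in progenitor-like, 0.03 ± 0.19 in cycling and -0.04 ± 0.15 in myoblast-like cells (0.15, -0.36 and -0.08 without KO 2), with 0 of 6, 0 of 7 and 0 of 4 tested genes called and 0% of 12659, 12481 and 10907 genes called respectively. Unadjusted p-values under 0.05 numbered 476, 500 and 505 of all genes in these stages.
The receptors in myogenic-like cells differed by -0.10 ± 0.09 (Acvr2a), 0.08 ± 0.11 (Acvr2b), -0.06 ± 0.07 (Tgfbr1) and -0.23 ± 0.23 (Acvr1b). For Acvr2a KO 2 was the one low library, and without it the value was 0.02. In cycling cells Acvr1b measured 4.94 and 4.48 CPM in WT 1 and WT 2 and 2.54 and 2.398 CPM in KO 1 and KO 2, a difference of -0.89 ± 0.32 (edgeR, unadjusted p = 0.0180, adjusted p = 0.983) that did not pass.

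Fst was the myogenic-like value with an unadjusted p under 0.05, at 1.32 and 0.829 CPM in WT and 1.89 and 2.64 CPM in KO (difference 1.11 ± 0.35, log2, SE; edgeR, unadjusted p = 0.0130, adjusted p = 0.968). It rests on 122 UMIs, and summed FAP markers, the class where Fst is abundant, were 978, 862, 978 and 993 CPM in WT 1, WT 2, KO 1 and KO 2. Their part in the value was not tested. Without KO 2 the difference was 0.83, and with clusters rebuilt at a finer resolution or from a looser cell filter it was 0.36 or 0.27. The rebuilt myogenic-like classes were not the same cells. They held a sub-cluster of 364 or 435 cells with Dcn, Pdgfra and Lum among its leading genes, whose part was not tested. Inhba and Fstl3 were too sparse in myogenic-like cells to be tested.

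In FAP-like cells all 10 genes could be tested and 0 were called, with 0% of 18220 genes called, although 752 genes had an unadjusted p under 0.05 and DESeq2 called 17 genes, none of them in the set. Fst differed by -0.05 ± 0.15 (log2, SE), Inhba by -0.18 ± 0.22, Acvr2a by -0.02, Tgfbr1 by 0.04 and Acvr1b by 0.06, and without KO 2 Fst stood at 0.16 and Inhba at -0.41. Inhbb was 2.73 and 2.58 CPM in WT and 1.45 and 1.96 CPM in KO, a difference of -0.60 ± 0.21 (edgeR, unadjusted p = 0.0250, adjusted p = 0.958). Without KO 2 the Inhbb difference was -0.83.
Mstn differed by 1.55 ± 0.61 in FAP-like cells (edgeR, unadjusted p = 0.0426, adjusted p = 0.958), from 0.195 and 0.293 CPM in WT to 0.334 and 1.06 CPM in KO. Without KO 2 the value was 0.48. Of the 95 UMIs 35 lay in the Anxa8- and Bglap2-led cluster, which had 15.3 CPM in KO 2 and 0 to 2.49 CPM in the others. Summed myogenic markers in FAP-like cells were 283, 153, 278 and 292 CPM in WT 1, WT 2, KO 1 and KO 2, and their part was not tested.

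An interaction term compared the KO effect in myogenic-like cells with that in FAP-like cells, and 0 of 10 genes and 0% of 18053 genes were called (662 with an unadjusted p under 0.05). Mstn gave -1.37 ± 0.44 (log2, SE; edgeR, adjusted p = 1) and Fst 1.17 ± 0.34 (edgeR, adjusted p = 1). Without KO 2 these values were -0.54 and 0.68.

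Among the other classes, members called and all genes called were 0 of 7 and 0% in chondrocyte-like, 0 of 7 and 0.017% in endothelial-like, 0 of 8 and 0% in glial-like, 0 of 5 and 0% in macrophage-like, 0 of 1 and 0.0982% in mast-like, 0 of 8 and 0.0952% in smooth muscle or pericyte-like, and 0 of 9 and 0% in tenocyte-like cells. Of these 45 tests 5 had an unadjusted p under 0.05, or 11.1% against 3.86% of the tests of all genes in these classes, and DESeq2 called none of the 45 and gave 0 with an unadjusted p under 0.05. Acvr2a in macrophage-like cells was 33.5 and 30.1 CPM in WT and 20.5 and 22.2 CPM in KO (-0.55 ± 0.18, log2, SE; edgeR, adjusted p = 0.996). Fst in tenocyte-like cells was 6.45 and 5.28 CPM in WT and 10.7 and 8.82 CPM in KO (0.75 ± 0.25; edgeR, adjusted p = 1.00), but with clusters rebuilt at a finer resolution the difference was 0.01. Without KO 2 the differences were -0.63 for Acvr2a in macrophage-like and 0.89 for Fst in tenocyte-like cells.
Fstl3 in chondrocyte-like cells was 3.35 and 4.12 CPM in WT and 1.40 and 0.941 CPM in KO on 32 UMIs. The difference was -1.86 ± 0.62 (edgeR, unadjusted p = 0.0111), which did not pass, and -1.41 without KO 2. Tgfbr1 was 0.34 ± 0.15 higher in chondrocyte-like and -0.23 ± 0.11 in smooth muscle or pericyte-like cells, and neither passed. Neutrophil-like cells, 25 in each KO library, were not tested.

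In all kept cells, 0 of the 10 genes and 0% of 20419 genes were called, with 961 genes at an unadjusted p under 0.05 and 55 called by DESeq2, none of them in the set. Fstl3 was 2.66 and 2.36 CPM in WT and 1.81 and 1.69 CPM in KO (-0.48 ± 0.14, log2, SE; edgeR, unadjusted p = 0.0195, adjusted p = 0.946). By class Fstl3 differed by -0.14 ± 0.18 in glial-like, -0.22 ± 0.24 in smooth muscle or pericyte-like and -0.19 ± 0.21 in FAP-like cells. In tenocyte-like cells it differed by -0.33 ± 0.51 and in chondrocyte-like cells by -1.86 ± 0.62, and none of these passed. Summed glial markers in all kept cells were 484, 272, 334 and 212 CPM, and their part was not tested. Mstn in all kept cells was 7.93, 7.17, 8.53 and 10.47 CPM (0.38 ± 0.13; edgeR, adjusted p = 0.946; 0.21 without KO 2), beside summed myogenic markers of 684, 616, 835 and 805 CPM. Inhbb in all kept cells differed by -0.48 ± 0.18 (edgeR, adjusted p = 0.946; -0.62 without KO 2). Without KO 2, the difference in all kept cells moved from -0.27 to -0.70 for Inhba and from -0.02 to 0.21 for Fst. Summed chondrocyte markers in all kept cells were 906, 1050, 201 and 1265 CPM in WT 1, WT 2, KO 1 and KO 2. Summed tenocyte markers were 609, 553, 394 and 498 CPM, and the part of either list in the Inhba values was not tested.

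Of the 30 further pathway genes 24 could be tested between genotypes in myogenic-like cells and 0 were called. The values with an unadjusted p under 0.05 were Acvr1c, a further type I receptor at 0.319 to 1.32 CPM (1.38 ± 0.44, log2, SE; edgeR, adjusted p = 0.968), and Tgfbr3, a co-receptor at 86.0, 81.4, 76.4 and 62.1 CPM in WT 1, WT 2, KO 1 and KO 2 (-0.23 ± 0.10; edgeR, adjusted p = 0.968; -0.10 without KO 2). The SMAD genes Smad2, Smad3, Smad4 and Smad7 lay between -0.06 and 0.04 on that scale.

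One further summary was computed because signalling scores between cell types are often built on it, the trimean. It weights the median and quartiles of the normalised values of single cells (natural log of 1 plus UMIs per 10000), and is 0 whenever fewer than 25% of cells hold a UMI. With the cells of both libraries of a genotype pooled, it was 0.108 for Mstn in WT myogenic-like cells, where 26.1% of cells held a UMI, and 0 in KO, where 24.5% did. In progenitor-like cells it was 0.117 in WT and 0.125 in KO. For Acvr2a in myogenic-like cells it was 0.466 in WT and 0.212 in KO, with shares of 54.8% and 48.3%, while the summed UMIs differed by -0.10 ± 0.09 (log2, SE). For Tgfbr1 in progenitor-like cells it was 0.575 in WT and 0.245 in KO, with shares of 56.1% and 47.6%, while the summed UMIs differed by -0.0039 ± 0.092.
Once all cells were thinned to 2000 UMIs, the shares in WT and KO were 6.85% and 6.78% for Mstn and 16.5% and 15.3% for Acvr2a in myogenic-like cells, and 19.7% and 16.9% for Tgfbr1 in progenitor-like cells. All of these lie under 25%, so their trimeans are 0 at that depth by the formula alone. For Tgfbr1 in myoblast-like cells the thinned shares were 23.4% in WT and 25.7% in KO, and the trimeans 0 and 0.448. The median depth of myogenic-like cells was 10288 and 11402.5 UMIs in WT 1 and WT 2 and 8967 and 9755 UMIs in KO 1 and KO 2. With pooled cells the trimean has no replicate error, and no test was made of it.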

How the data were processed

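Dissociated leg muscle cells were profiled with the Chromium Single Cell 3' v3 kit. Per the labels, the authors used Cell Ranger 7.2.0 and mm10, and deposited filtered matrices of raw UMI counts, 1 per library. Whether intron reads were kept is not given in the sources used here. Of 41741 barcodes, 36969 passed the study's own filter, with detected genes from 1000 to 6000, UMIs from 1000 to 25000 and a mitochondrial share below 8% (the study states a lower total, and the step behind the gap is not given in the sources used here). Clusters came from scanpy 1.11.5 (3000 variable genes without the 10 members and 30 pathway genes, 30 components, 20 neighbours, Leiden resolution 0.3), and were named by marker lists. Scrublet marked 1.65% to 2.48% of cells, which stayed in. The members and all lists were chosen with earlier results of these data known.

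Each class of each library gave 1 column of summed UMI counts, to which edgeR 4.0.16 was applied (TMM, filterByExpr, quasi-likelihood, Benjamini-Hochberg over all genes, threshold 0.05), with classes of at least 50 cells and stages of at least 20 in every library where KO and WT were compared. Contrasts between classes or stages had the library as a block. DESeq2 1.42.0 was an alternative. Per the study the fetuses were littermates, but which fetuses gave each library is not described, so p-values measure only the spread between them. The kept cells held 93728519 to 108962643 UMIs per library, and floors and shares carry counting error too. Named pathway genes are, per comparison, the 3 with the largest change in each direction among those called, and some genes that this rule or the ranking by likeness names are not reported here. The edgeR step was tested on simulated data. Gene positions are from GENCODE vM21 on GRCm38. Inhba, Acvr2a, Acvr2b, Fst and Fstl3 overlap genes on the other strand, which a stranded kit tells apart.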

Additional observations from a re-analysis of the deposited data

Results flagged for a closer look

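Inhba was flagged because it was present in cells of unnamed clusters, which no comparison other than that of all kept cells used. Its mean there was 34.6 CPM (SD 15.1, n = 4 libraries), with 40.5, 46.2, 12.4 and 39.5 CPM in WT 1, WT 2, KO 1 and KO 2, so KO 1 was the low library. These cells held 12.9% of the Inhba UMIs and 6.04% of all UMIs. The largest unnamed cluster, of 891 cells led by Spp1, Runx2 and Alpl, had a mean of 47.9 CPM, and it made up 0.886% of KO 1 against 1.47% to 3.66% of the other libraries. An unnamed cluster of 528 cells led by Tnn and Chst5 had 46.1 CPM.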

How the results depend on the processing

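The counts of the 10 genes called between KO and WT were 0 in myogenic-like, FAP-like, other classes, stages and all kept cells, and 0 for the interaction, under each alternative run (DESeq2, other size factors, no count filter, the replicate number as a block, each library left out, doublets removed, looser cell filter, finer clusters, where each applied). With a replicate block in KO against WT, 0 of the 10 genes were called in myogenic-like cells, but 23 of all 14707 genes were, against 0 without it. Deviations of log CPM from the genotype mean correlated over genes at 0.0655 in myogenic-like and 0.114 in FAP-like cells between same-numbered libraries. With 2 libraries per genotype this is only 1 independent value per class, so the numbers were not taken as pairs. All 10 genes stayed called in myogenic-like against FAP-like cells in every alternative run. Without the library as a block (no replicate block), cycling against progenitor-like cells gave 1 call in place of 4, and Mstn, Gdf11 and Acvr2a were then at adjusted p-values of 0.256, 0.0584 and 0.110. Leaving out 1 library gave 2 to 4 calls there, and 1 to 2 in myotube-like against myoblast-like cells (1 without KO 2, where Fst could not be tested). The Mstn share difference was 0.445 percentage points at 1000 UMIs per cell and -1.44 to 1.36 with a library left out. Values that changed sign were those of differences that had not been called, namely Fst in FAP-like cells at finer clusters (0.013), Gdf11 in myogenic-like cells and Fst in tenocyte-like cells under the looser filter (-0.12 and -0.017), and Acvr2b between myoblast-like and progenitor-like cells by Pax7 and Myog UMIs (0.053). With libraries left out, the KO against WT ranges that crossed 0 were -0.075 to 0.035 (Acvr2a), -0.30 to 0.16 (Fst), -0.44 to 0.13 (Inhba) and -0.059 to 0.13 (Tgfbr1) in FAP-like cells, and -0.22 to 0.019 (Acvr2a), -0.064 to 0.23 (Gdf11), -1.11 to 0.29 (Inhbb) and -0.052 to 0.36 (Mstn) in myogenic-like cells, and that of Acvr1b between cycling and progenitor-like cells was -0.17 to 0.28. Of 765 single values, 281 with a library left out and 441 under other alternatives kept their direction and side of the threshold, 21 and 3 lost a call, 15 and 4 changed sign, and 0 gained a call. The cause was not tested. Depth limits Fstl3, Inhba and Inhbb in myogenic-like cells most, with 28, 30 and 44 UMIs.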

Other observations

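Genes that process, store or modulate these ligands had source cells of their own. Furin, a convertase that cuts ligand precursors, was highest in mast-like cells at 490, 498, 443 and 505 CPM in WT 1, WT 2, KO 1 and KO 2, against 61.0 ± 15.2 CPM (SD, n = 4) in the next class, neutrophil-like cells. Pcsk5, another convertase, was highest in tenocyte-like cells at 228, 209, 228 and 208 CPM, and the next class, glial-like cells, stood at 118 ± 16.4 CPM (SD, n = 4). Ltbp3, a protein of the matrix that can hold latent ligands, was also highest there, at 97.2, 104, 83.0 and 97.1 CPM. Bmp1, a tolloid protease, was highest in FAP-like cells at 105, 98.6, 104 and 101 CPM, which held 20070 of its 27625 UMIs. Wfikkn2 was highest in the same cells, at 3.92, 3.92, 3.95 and 3.68 CPM, with 759 of 937 UMIs. The co-receptor gene Tgfbr3 stood at 716, 671, 597 and 539 CPM in glial-like cells. No library of another class reached the values given for Furin, Pcsk5 and Tgfbr3, whereas chondrocyte-like libraries (76.1 to 86.8 CPM) overlapped those of Ltbp3.

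Mstn was also present in 3 small unnamed clusters that carried both myogenic and FAP markers, of 183, 101 and 58 cells, at 23.4, 28.2 and 11.0 CPM on average. Their median depth, 16730 to 18040 UMIs per cell, was above the 10056 UMIs of all kept cells. The libraries scattered from 17.9 to 31.2 CPM in the largest of the 3.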
